A study of Mus musculus with 12 samples.

Results

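The response of splenic CD4+ T cells to activation was compared between mice with ligature-induced periodontitis (LIP group) and control mice (CTL group). For each gene, the change from day 0 to day 2 in the LIP group minus the same change in the CTL group was taken as the interaction of group and day, on the log2 scale. A value of 0 means that both groups changed alike, a positive value that the gene ended higher in the LIP group than its day 0 level and the CTL response would give, and a negative value the reverse. The interaction was tested in all 15475 genes that passed the filter on low counts, out of 55414 gene records, of which 28221 held a count above 0 after rounding, and over all 12 libraries of the series.

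The cells came from the spleens of wild-type BALB/c mice of 18 weeks of age, from which CD4+ T cells were isolated by negative selection. All mice were male according to the study's methods. LIP mice had carried a silk ligature around the upper molars on both sides, and CTL mice had been anesthetized without a ligature. Cells of day 0 were collected without culture, and those of day 2 after culture in which the label protocol gives anti-TCRβ and anti-CD28 antibodies at 1 μg/ml each and IL-2 at 10 ng/ml. The study's methods differ from these in the concentrations of IL-2 and of anti-TCRβ antibody. In place of anti-CD28, the day 2 labels of CTL 93 and LIP 96 list anti-CD29, and those of CTL 97 and LIP 97 list anti-CD30. Each of the 4 groups held 3 libraries, named by the numbers in their titles: CTL 88, 89 and 94 and LIP 92, 93 and 94 on day 0, and CTL 92, 93 and 97 and LIP 90, 96 and 97 on day 2. Because each library belongs to 1 day, the activation response was compared between groups of libraries and not within a mouse or a culture. The labels do not say whether the libraries of a group came from separate mice, so that the p-values measure only the spread between these libraries.

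A resting CD4+ T cell that is stimulated through its receptor and CD28 leaves quiescence, enlarges and divides. Translation, protein folding capacity, amino acid uptake, glycolysis and sterol synthesis are turned up in this transition, and genes of the naive state are turned down. Heat shock chaperones help new proteins fold, interferon-stimulated genes form an antiviral programme that also runs at low level in T cells, and p53 targets restrain the cycle or promote death after DNA damage.

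The libraries held between 6249018 and 7845676 counts on day 0 and between 8691699 and 12866718 on day 2, and a count of 3 corresponded to 0.269 to 0.452 CPM (counts scaled to a common library size). The 5 markers of CD4 T cells together amounted to 1530 to 2710 CPM in each library. The summed markers of other cells stayed at 20.8 to 127 CPM for B cells, 0.568 to 13.4 CPM for NK cells and 2.42 to 13.1 CPM for myeloid cells, with S100a8 and S100a9 at 0 throughout. A library of the LIP group on day 2, LIP 90, stood apart from LIP 96 and 97. It is also the LIP library of day 2 whose label lists anti-CD28, and the part of this label difference was not tested. Its chi-square per gene was 45.1 against LIP 96 and 35 against LIP 97, whereas LIP 96 and LIP 97 differed from each other by 10.9. The root mean square log2 difference of LIP 90 was 0.506 to 0.592 from the CTL libraries of day 2 and 0.640 and 0.633 from LIP 96 and LIP 97. List medians and the values of some of the genes are therefore also given without it. Since LIP 90 was singled out on these same data, leaving it out narrows the spread within the LIP group of day 2, which then rests on LIP 96 and 97. The p-values and the numbers of genes passing without LIP 90 are thus too favourable and serve as a description, not as support.

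Most of the response to activation was shared. The change from day 0 to day 2 passed an adjusted p of 0.05 in 10676 genes of the CTL group (69% of those tested) and in 11111 of the LIP group (71.8%), and across genes the changes of the groups had a Pearson correlation of 0.908, given as a description because genes are not independent replicates. The median interaction over all genes was -0.001, with an SD of 0.72 across genes. The interaction passed an adjusted p of 0.05 in 8 genes (0.0517% of those tested), of which 5 were positive (0.0323%) and 3 negative (0.0194%) (quasi-likelihood F test of edgeR, adjusted after Benjamini and Hochberg). An unadjusted p under 0.05 was found for 2464 genes (15.9%), 1338 positive (8.65%) and 1126 negative (7.28%). When LIP 90 was left out, 1596 of 15823 genes passed (10.1%), 892 positive (5.64%) and 704 negative (4.45%), and all 8 genes were among them. With another library left out, the number was 27 without CTL 94 of day 0, 15 and 12 without CTL 97 and CTL 92 of day 2, and 3 to 6 without LIP 94 of day 0 or LIP 96 or 97 of day 2. Hsp90ab1 alone remained without CTL 88, CTL 89, LIP 92 or LIP 93 of day 0 or CTL 93 of day 2. Without both LIP 90 and CTL 94 of day 0, 913 positive (5.75%) and 769 negative genes (4.85%) passed.

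**Figure D1:**
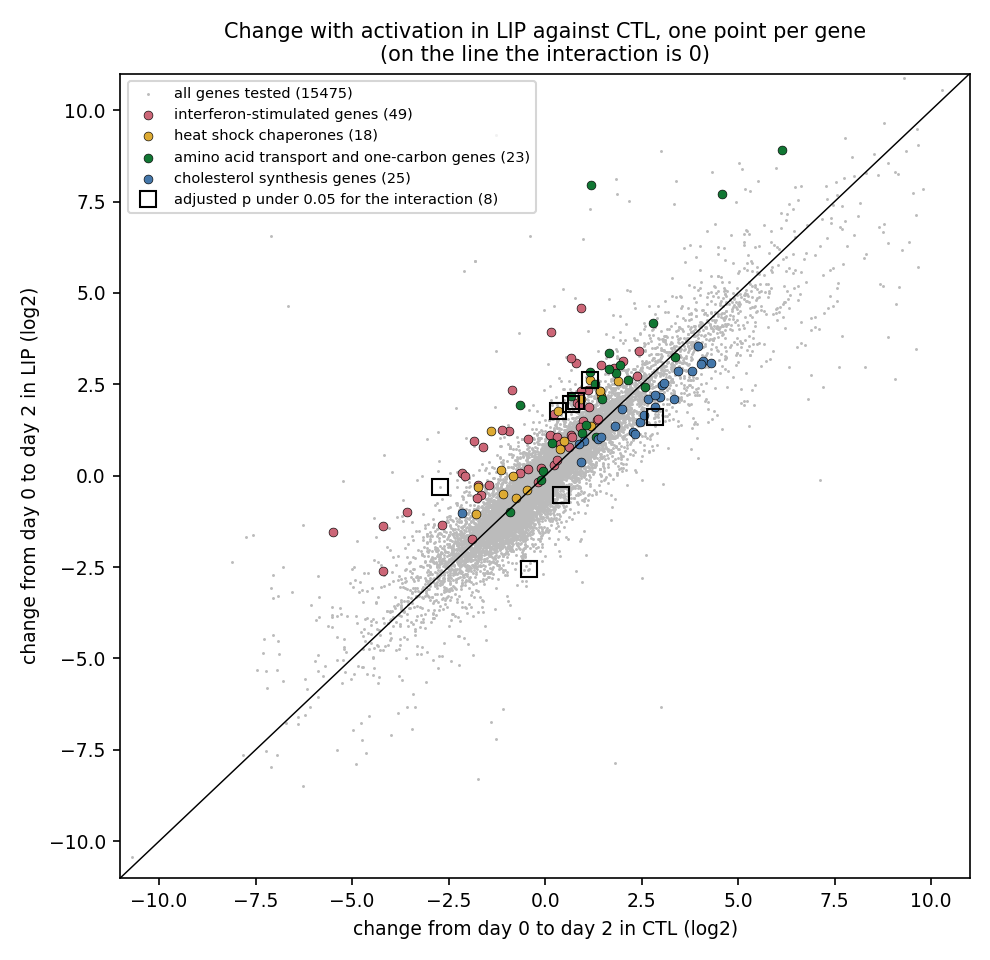
Log2 change from day 0 to day 2 in the LIP group (vertical axis) against that in the CTL group (horizontal axis), with 1 point per gene for the 15475 genes tested, 4 gene lists in colour and the 8 genes with an adjusted p under 0.05 for the interaction as squares. Most points lie along the line of equal change, interferon-stimulated genes and amino acid genes lie mostly above it, and 24 of the 25 cholesterol synthesis genes lie below it.

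The difference between LIP and CTL passed an adjusted p of 0.05 in 12 genes on day 0 (0.0775%) and in 775 on day 2 (5.01%). On day 0, the 3 LIP libraries lay above the 3 CTL libraries without overlap in 9.01% of genes and below them in 9.28%, and on day 2 in 10.4% and 10.3%. An interaction can come from a difference on day 0, on day 2 or on both. The difference was larger on day 0 in 3 of the 8 genes and larger on day 2 in 5 (62.5%), against 60.5% of all genes tested. Among the genes with an unadjusted p under 0.05, the larger difference was on day 2 in 73.9% of the positive and 74.8% of the negative genes. These shares, against the same 60.5%, are a description, since these genes were selected on the difference of both days. Of these 1338 positive genes, 678 were higher on day 2 than on day 0 in both groups, by more in the LIP group, and 345 were lower on day 2 in both groups, by less in the LIP group. Of the 1126 negative genes, 421 were higher on day 2 in both groups, by less in the LIP group, and 465 were lower in both, by more in the LIP group. For comparison, 6900 of all 15475 genes were higher in both groups, 3707 by more and 3193 by less in the LIP group. Another 7033 were lower in both, 3838 by more and 3195 by less in the LIP group.

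The positive genes with an unadjusted p under 0.05 had a median level of 56.9 CPM and the negative ones of 14 CPM, against 18.3 CPM for all genes tested. The median length of the longest transcript was 3770 and 4190 bases, respectively, against 3818 for all genes, and the median GC content was 47.8% and 48.4%, against 48.2%. Protein-coding genes made up 88.9% of the positive and 70.6% of the negative genes, against 77.5% of all.

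The smallest p belonged to a chaperone. Hsp90ab1 encodes the constitutive form of cytosolic HSP90, which folds kinases and receptors of many signalling pathways. It was counted at 1305, 1348 and 1184 CPM in the CTL libraries of day 0, at 592.4, 585.6 and 617.4 CPM in the LIP libraries of day 0, at 2630, 3004 and 3005 CPM in the CTL libraries of day 2 and at 3639, 3798 and 3687 CPM in LIP 90, 96 and 97. The groups did not overlap on either day, with LIP below CTL on day 0 and above it on day 2. The interaction was 1.46 ± 0.13 (SE; adjusted p = 0.000672), made up of a LIP difference of -1.10 on day 0 (adjusted p = 0.000358) and 0.36 on day 2 (adjusted p = 0.0426). Hsp90ab1 was the one gene that kept an adjusted p under 0.05 whichever library was left out, with adjusted p between 7.87e-06 and 0.00859.

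Hspa8, the constitutive HSP70 of the cytosol, had the same form. Its values were 821.2, 930.7 and 876.1 CPM (CTL) and 426.9, 422.2 and 510.9 CPM (LIP) on day 0, and 957, 1141 and 1224 CPM (CTL) and 1289, 1534 and 1770 CPM (LIP) on day 2. The gene rose with activation by 0.34 on the log2 scale in CTL and by 1.76 in LIP, which started lower and ended higher, and the groups did not overlap on either day. The interaction was 1.42 ± 0.19 (adjusted p = 0.0168). The processed pseudogene record Gm15459 (interaction 1.3 ± 0.19, adjusted p = 0.0230) is a near-identical copy of Hspa8: its transcript matched that of Hspa8 at 99.5% over 1945 aligned bases. Its counts of 502.6 ± 51.0 to 1974 ± 219 CPM per group (mean ± SD, n = 3) are thus uncertain, since reads of Hspa8 may have been divided between the records, and it is not counted as separate evidence.

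**Figure D2:**
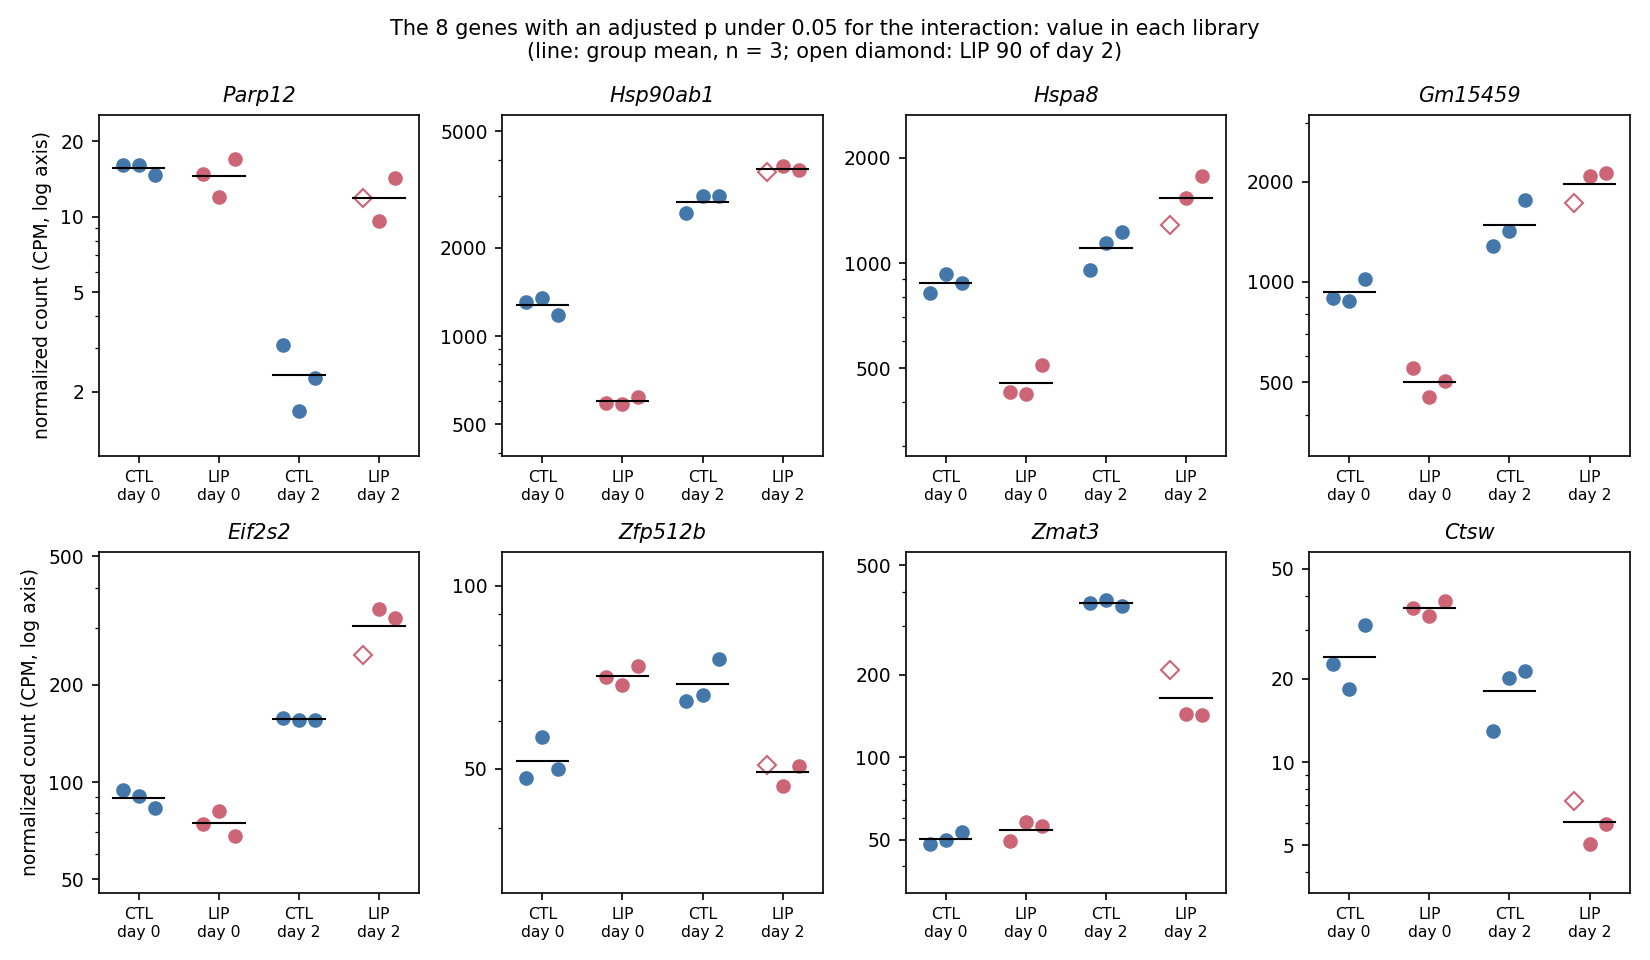
Normalized count in CPM (log axis) of the 8 genes with an adjusted p under 0.05 for the interaction in each of the 12 libraries, CTL in blue and LIP in red, with lines for the group means (n = 3) and LIP 90 of day 2 as an open diamond. Hsp90ab1, Hspa8 and Gm15459 are lower in LIP on day 0, Parp12 and Eif2s2 differ mainly on day 2, and Zmat3, Ctsw and Zfp512b are lower in LIP on day 2.

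The wider list of heat shock chaperones (HSP90, HSP70, HSP110, HSP40 and small heat shock proteins, the mitochondrial Hspa9, Hspd1 and Hspe1, the cofactor Bag3 and the regulator Hsf1) had 18 of 19 members tested, and 18 of 18 values were positive, with a median of 0.78. An adjusted p under 0.05 was reached by 2, both positive (0.0323% of all genes), and an unadjusted p under 0.05 by 13, against 8.65% positive among all genes. The median LIP difference of the list was -0.67 on day 0 and 0.03 on day 2. Relative to the CTL mean of the same day, the mean log2 level of the list was -0.82, -0.81 and -0.73 in the LIP libraries of day 0, and 0.20, -0.22 and -0.09 in LIP 90, 96 and 97. The difference between the groups in this list was thus larger before culture than after it. Without LIP 90, 9 members had an adjusted p under 0.05, all positive (5.64% of all genes), and the median was 0.65. It was 0.41 without both LIP 90 and CTL 94 of day 0.

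Mitochondrial Hspa9, an HSP70 that imports and folds proteins in the matrix, was an exception in its timing. It was counted at 168.2, 150.1 and 164.3 CPM (CTL) and 154.2, 134.2 and 142.2 CPM (LIP) on day 0, and at 401.5, 437.5 and 459 CPM (CTL) and 571.4, 780.1 and 783.1 CPM (LIP) on day 2. Its interaction was 0.88 ± 0.17 (adjusted p = 0.0740; 0.000184 without LIP 90), with the larger LIP difference on day 2 (0.72). Hsph1, an HSP110 that acts as exchange factor for HSP70, had 263.1, 255.3 and 297.2 CPM (CTL) and 87.22, 83.86 and 92.99 CPM (LIP) on day 0, but overlapped on day 2. The interaction of Hsph1 was 1.3 ± 0.34 (adjusted p = 0.102; 0.79 and 0.00139 without LIP 90), and that of Hsp90aa1, the stress-inducible HSP90, was 1.18 ± 0.36 (adjusted p = 0.139; 0.62 and 0.00869 without LIP 90).

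The HSP90 co-chaperones, which load and time the HSP90 cycle, had a median interaction of 0.51 over 12 members, of which 6 had an unadjusted p under 0.05, all positive (8.65% of all genes). Without LIP 90 the median was 0.28, and 0.25 without CTL 94 of day 0 as well. Stip1, which bridges HSP70 and HSP90, was at 165, 182.4 and 149.6 CPM in CTL and 63.25, 64.16 and 67.34 CPM in LIP on day 0, and at 235.4, 301.3 and 268.3 CPM in CTL and 310.1, 182.9 and 204.8 CPM in LIP on day 2. The interaction of Stip1 was 1.15 ± 0.24 (adjusted p = 0.0832; 0.00251 without LIP 90). Those of Ahsa2, an activator of HSP90, Fkbp4, an immunophilin, and Sugt1 were 0.84, 0.74 and 0.59, and 0.55, 0.50 and 0.68 without LIP 90. The TRiC chaperonin, which folds actin and tubulin, had a median of 0.37 over 8 subunits, of 0.22 without LIP 90 and of 0.13 without both LIP 90 and CTL 94 of day 0. An unadjusted p under 0.05 was found for 4 of them, all positive (8.65% of all genes), led by Cct5 (0.63 ± 0.13, adjusted p = 0.0832) and Cct4 (0.59).

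The upstream window of Hspe1, the list member with the smallest p among those whose upstream window held a heat shock element, is shown as an example from the heat shock list. RefSeq windows of 250 bases before the start (build GRCm38.p6) were found for 14 genes of the heat shock list, and a heat shock element written as GAA, any 2 bases, TTC, any 2 bases and GAA, on either strand, occurred in 3 of them (21.4%) and in 0 of 11 HSP90 co-chaperones, against 0.514% of 27025 genes with a window and 0.464% of those tested. The Hspe1 window lies on the plus strand at chr1:55087898-55088147, and the capitals mark 2 overlapping matches, 89 to 72 bases before the start.
Hspe1: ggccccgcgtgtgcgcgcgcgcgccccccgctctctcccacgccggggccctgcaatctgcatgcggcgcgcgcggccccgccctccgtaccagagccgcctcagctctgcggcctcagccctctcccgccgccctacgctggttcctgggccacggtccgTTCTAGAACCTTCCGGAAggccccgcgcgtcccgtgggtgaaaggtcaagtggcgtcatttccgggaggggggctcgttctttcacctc
A match describes letters in this window and was not tested as a binding site.

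Immediate early factors, transcription factors and phosphatases that are induced within minutes of a stimulus or of handling, were also lower in LIP before culture. Of 23 members, 20 were positive, 12 had an unadjusted p under 0.05, all positive (8.65% of all genes), and the median was 0.61 (0.69 without Fosl1, which had 0 counts in every library of 1 group). The median LIP difference was -0.54 on day 0 and 0.15 on day 2. Fos was counted at 163.3, 130.4 and 50.91 CPM in CTL 88, 89 and 94 and at 34.17, 26.03 and 31.8 CPM in LIP on day 0, and at 13.4 to 18.6 CPM in all libraries of day 2. Hence the LIP cells started lower and the groups overlapped on day 2, with an interaction of 2.04 ± 0.44 (adjusted p = 0.0839). The values of Jun were 290.3, 317.5 and 161.7 CPM (CTL) and 124.8, 98.49 and 92.59 CPM (LIP) on day 0 and 17.4 to 27.5 CPM on day 2, and its interaction was 1.14 ± 0.32 (adjusted p = 0.118).

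Nr4a1, an orphan nuclear receptor that reports T cell receptor signalling, was high on day 2 as well. It was at 43.39, 40.33 and 17.76 CPM (CTL) and 15.57, 12.1 and 14.16 CPM (LIP) on day 0, and at 128.4, 152.5 and 104.8 CPM (CTL) and 131.6, 163.9 and 258.7 CPM (LIP) on day 2, with an interaction of 1.80 ± 0.42 (adjusted p = 0.0876). In each of these genes CTL 94 of day 0 was the CTL library closest to the LIP libraries, and its mean level over the list was -0.36, against 0.27 and 0.08 in CTL 88 and CTL 89 and -0.54 to -0.61 in LIP. Without CTL 94 of day 0, 27 genes passed the adjusted p of 0.05 for the interaction, 21 of them positive.

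Among endoplasmic reticulum chaperones and stress genes, 6 of 19 had an unadjusted p under 0.05, all positive (8.65% of all genes), with a median of 0.21. Without LIP 90 the median was 0.11, and 5 members were positive and 1 negative at an adjusted p under 0.05 (against 5.64% and 4.45% of all genes), and without LIP 97 of day 2 the median was 0.34. Hspa5, the HSP70 of the endoplasmic reticulum, had an interaction of 0.76 ± 0.19 and Dnajb9, its co-chaperone, of 1.38 ± 0.35 (adjusted p = 0.100 for both). Atf4 and Ddit3, transcription factors of the integrated stress response, are described with the amino acid genes.

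Interferon-stimulated genes had the highest median of the lists outside the cell type markers in the fit to all libraries, and the next highest after the amino acid genes without LIP 90. Of 49 members tested, 48 were positive and 34 had an unadjusted p under 0.05, all positive (8.65% of all genes), with a median of 1.15, although none had an adjusted p under 0.05 in the fit to all libraries. The smallest adjusted p in the list was 0.0740 in edgeR, and with DESeq2 25 members were positive at an adjusted p under 0.05, against 3.11% of the 12174 genes for which DESeq2 gave an adjusted p. The median LIP difference was 0.11 on day 0 and 1.35 on day 2, so that the groups differed more in the cultured cells. LIP 90 was with the other libraries of its group here: the mean log2 level of the list relative to the CTL mean was 1.21, 1.24 and 2.07 in LIP 90, 96 and 97, against 0.36, -0.46 and 0.10 in CTL 92, 93 and 97. Without LIP 90, 28 members had an adjusted p under 0.05, all positive (5.64% of all genes), with a median of 1.27.

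Parp12, a mono-ADP-ribosyltransferase that is itself induced by interferon, was the member of this programme that passed the test, as part of the PARP list. It was at 16.12, 16.13 and 14.6 CPM (CTL) and 14.74, 11.96 and 16.97 CPM (LIP) on day 0, and at 3.065, 1.672 and 2.271 CPM (CTL) and 11.82, 9.643 and 14.25 CPM (LIP) on day 2. The groups overlapped on day 0, and on day 2 each LIP library was above each CTL library. The CTL group lost most of its Parp12 with activation (log2 -2.72) and the LIP group kept its level (log2 -0.30), an interaction of 2.42 ± 0.30 (adjusted p = 0.0136). This was the same without LIP 90 (2.42, adjusted p = 0.000317). Of the 15 members of the PARP list, 8 had an unadjusted p under 0.05, all positive (8.65% of all genes), with a median of 0.63, and Parp10 (1.04 ± 0.25), Parp14 (0.93 ± 0.25) and Dtx3l, a partner of Parp9 (0.80 ± 0.22), followed Parp12. Without LIP 90, 7 members were positive at an adjusted p under 0.05 (5.64% of all genes).

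Several interferon-stimulated genes were low in CTL cells on day 2. Isg15, a ubiquitin-like modifier, was at 3.593, 1.314 and 2.385 CPM in CTL and 21.67, 26.21 and 55.58 CPM in LIP on day 2, and at 0.722 to 2.27 CPM in all libraries of day 0, with an interaction of 3.67 ± 0.79 (adjusted p = 0.0839; 0.00450 without LIP 90). Usp18, the protease that removes ISG15 and limits interferon signalling, was at 15.32, 7.763 and 8.63 CPM in CTL and 54.36, 57.86 and 134.9 CPM in LIP on day 2 (interaction 2.56 ± 0.53, adjusted p = 0.0832). Oasl1, an oligoadenylate synthetase-like protein, had an interaction of 3.20 ± 0.58 and Herc6, an ISG15 ligase, of 1.48 ± 0.30 (adjusted p = 0.0740 and 0.0831). Gbp2, a guanylate-binding protein, rose in both groups, by 2.44 in CTL and 3.41 in LIP, with an interaction of 0.98 ± 0.22 (adjusted p = 0.0871).

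Ifi206, Ifi208, Ifi209 and Ifi213 of the Ifi200 cluster on chromosome 1 were among the highest values without LIP 90, and were thus picked for a positive interaction. Ifi209 was at 104.4, 119.2 and 100.8 CPM (CTL) and 102.7, 90.47 and 90.46 CPM (LIP) on day 0, and fell to 11.84, 4.419 and 10.56 CPM (CTL) and 18.72, 44.28 and 80.97 CPM (LIP) on day 2. The fall was smaller in LIP, with an interaction of 2.59 ± 0.56 (adjusted p = 0.0839; 0.000164 without LIP 90). The interactions of Ifi206, Ifi208 and Ifi213 were 4.08 ± 0.90, 3.63 ± 0.75 and 3.08 ± 0.75 (adjusted p = 0.0839, 0.0832 and 0.0917 with all libraries). These genes are paralogs that lie next to each other and share sequence, so that reads may have been divided between them. Ifnb1, the gene of interferon β, had 0 counts in all 12 libraries, where a count of 3 corresponded to at most 0.452 CPM.

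The interferon-stimulated response element, written as GAAA, any 2 bases and GAAAC on either strand, occurred in the upstream windows of 15 of 41 interferon-stimulated genes with a window (36.6%), against 0.796% of the 27025 genes and 0.928% of those tested. The 2 list members with a match and the smallest p were Isg15 (minus strand, chr4:156200819-156201068) and Gbp2 (plus strand, chr3:142620413-142620662), in build GRCm38.p6 of RefSeq. The capitals mark 2 overlapping matches 78 to 62 bases before the start of Isg15 and 1 match 60 to 50 bases before that of Gbp2, there on the opposite strand.
Isg15: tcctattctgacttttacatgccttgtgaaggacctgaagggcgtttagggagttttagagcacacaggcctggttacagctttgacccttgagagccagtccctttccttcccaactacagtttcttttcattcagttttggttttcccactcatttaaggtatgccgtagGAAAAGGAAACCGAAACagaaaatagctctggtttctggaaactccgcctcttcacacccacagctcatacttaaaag
Gbp2: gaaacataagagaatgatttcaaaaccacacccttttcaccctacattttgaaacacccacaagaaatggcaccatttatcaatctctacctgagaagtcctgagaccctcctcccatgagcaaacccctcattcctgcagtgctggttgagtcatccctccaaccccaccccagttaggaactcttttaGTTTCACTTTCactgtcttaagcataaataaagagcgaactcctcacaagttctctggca
No binding of a factor to these letters was measured.

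**Figure D3:**
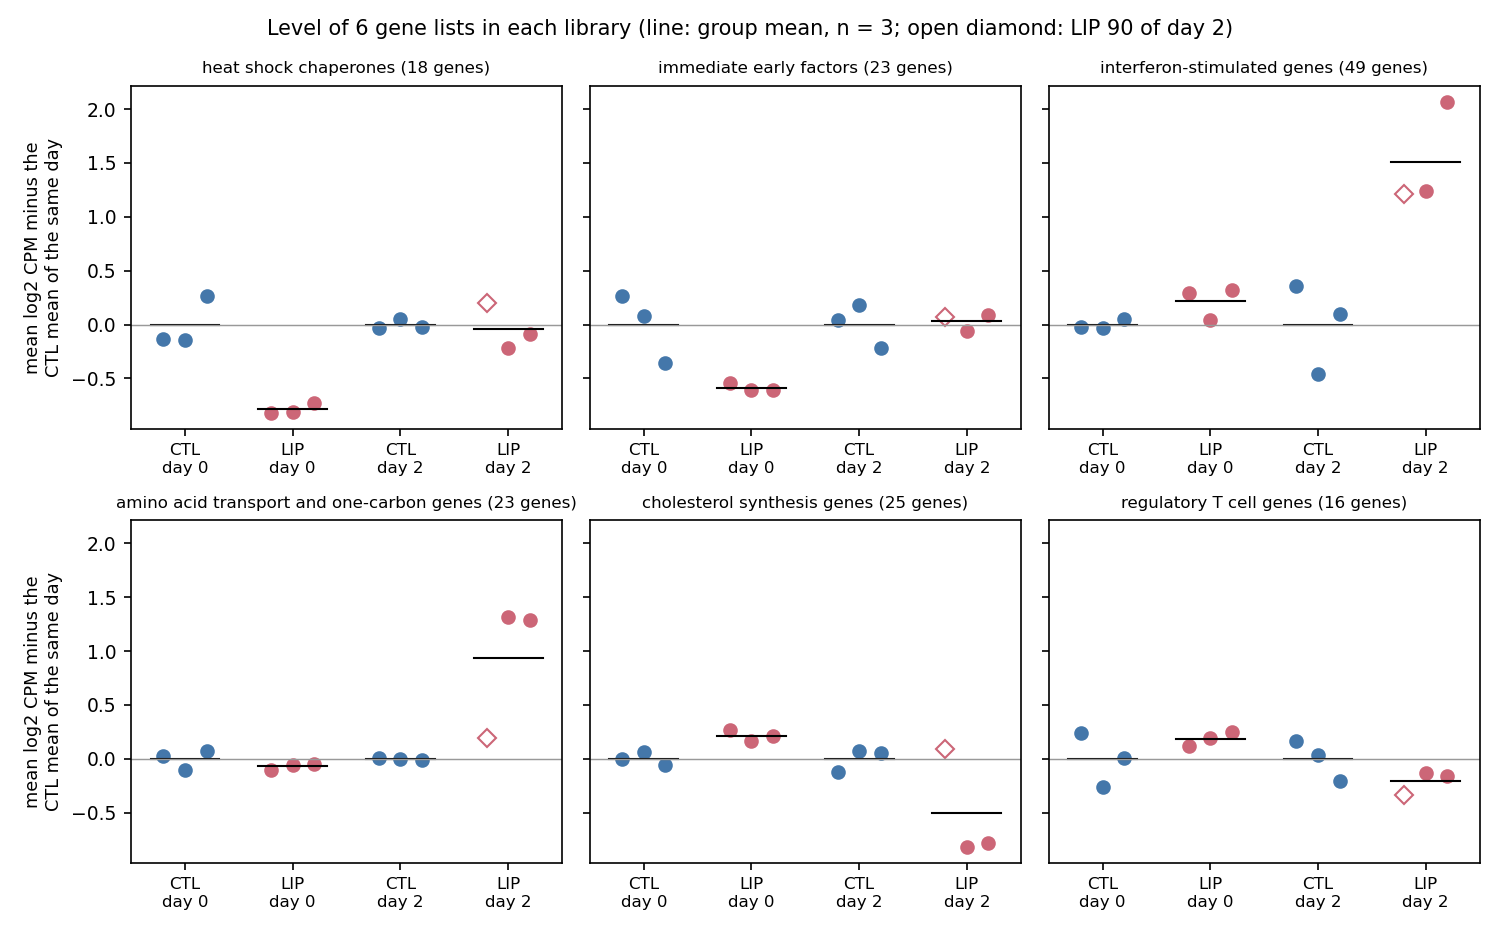
Mean log2 CPM of 6 gene lists in each library minus the mean of the CTL libraries of the same day, with lines for the group means (n = 3) and LIP 90 of day 2 as an open diamond. Heat shock chaperones and immediate early factors are low in all 3 LIP libraries of day 0, interferon-stimulated genes are high in all 3 LIP libraries of day 2, and amino acid and cholesterol genes differ from CTL in LIP 96 and 97 but hardly in LIP 90.

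Genes of amino acid uptake, serine synthesis and one-carbon metabolism had a median interaction of 0.99 over 23 members, and 12 had an unadjusted p under 0.05, all positive (8.65% of all genes). The median LIP difference was -0.07 on day 0 and 0.81 on day 2. This list separated the LIP libraries of day 2: its level relative to CTL was 1.32 and 1.29 in LIP 96 and 97 and 0.19 in LIP 90. With LIP 90 left out, 15 of the 24 members then tested passed an adjusted p of 0.05, all positive (5.64% of all genes), and the median was 1.34, or 1.28 over the 23 members tested with all libraries. Slc3a2, the heavy chain of the CD98 amino acid exchanger, was at 49.9 to 67.5 CPM in the libraries of day 0, at 90.99, 87.9 and 104.9 CPM in CTL on day 2, and at 113.8, 320.4 and 298.2 CPM in LIP 90, 96 and 97. Its interaction was 1.52 ± 0.39 (adjusted p = 0.102; 6.09e-06 without LIP 90), and that of its light chain Slc7a5 was 1.71 ± 0.53 (adjusted p = 0.138; 5.93e-06 without LIP 90).

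Within the cell, Psat1, which makes phosphoserine, had an interaction of 1.39 ± 0.37 (adjusted p = 0.108; 0.000155 without LIP 90), and Mthfd2, the mitochondrial folate enzyme of proliferating cells, of 1.68 ± 0.52 (adjusted p = 0.137; 7.87e-06 without LIP 90). The cystine importer Slc7a11 was at 1.48, 2.15 and 1.817 CPM in CTL and at 2.239, 14.14 and 11.66 CPM in LIP 90, 96 and 97 on day 2, with an interaction of 2.59 ± 0.76 (adjusted p = 0.128; 0.000228 without LIP 90). Asparagine synthetase, Asns, was under 1.6 CPM in each library of day 0, at 23.25, 18.63 and 19.19 CPM in CTL on day 2 and at 45.41, 278.5 and 288.9 CPM in LIP 90, 96 and 97. For Asns, the interaction was 3.14 ± 1.48 (adjusted p = 0.319; 0.000377 without LIP 90).

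Atf4, a transcription factor that induces amino acid genes, Ddit3 and Trib3 are given here as single genes, and none of them passed the test in the fit to all libraries. Atf4 was at 193.5, 488.6 and 450.9 CPM in LIP 90, 96 and 97 and at 132.1 to 173.9 CPM in CTL on day 2, with an interaction of 1.38 ± 0.37 (adjusted p = 0.108; 0.000107 without LIP 90). Its target Ddit3, also called CHOP, was at 10.3, 94.47 and 85.77 CPM in LIP 90, 96 and 97 and at 7.76 to 10.2 CPM in CTL, with an interaction of 2.31 (adjusted p = 0.192; 6.09e-06 without LIP 90). Trib3, a pseudokinase induced by both and named for its value without LIP 90, was at 6.269, 142.4 and 102.4 CPM against 2.99 to 3.97 CPM in CTL, and its interaction was 4.62 without LIP 90 (adjusted p = 3.79e-06) and 4.07 with it (adjusted p = 0.186).

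Aminoacyl-tRNA synthetases, which charge tRNAs, had a median interaction of 0.74 over 20 members, 13 of them with an unadjusted p under 0.05, all positive (8.65% of all genes). Nars1 was at 69.2 to 86.9 CPM on day 0, at 110, 107.2 and 118 CPM in CTL and at 164.2, 487.5 and 502.8 CPM in LIP 90, 96 and 97 on day 2, which gave the highest value of the named synthetases, 1.87 ± 0.41 (adjusted p = 0.0839; 6.98e-07 without LIP 90). All 3 LIP libraries were above all CTL libraries in this gene, LIP 90 by the least. Eprs1 (1.12), Gars1 (1.18) and Aars1 (1.62) likewise had all LIP libraries above all CTL libraries, with LIP 90 the lowest of the group. Their adjusted p was 0.0839, 0.0983 and 0.105 with all libraries and 3.01e-05, 3.79e-06 and 9.53e-07 without LIP 90. Without LIP 90, 13 synthetases were positive and 1 negative at an adjusted p of 0.05, against 5.64% and 4.45% of all genes.

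The markers of B cells and of CD8 T cells were read beside these genes, since they also divided the LIP libraries of day 2. The mean log2 level of the 5 markers relative to the CTL mean was -1.08 in LIP 90 and 1.92 and 1.67 in LIP 96 and 97, but it was also 1.48 in CTL 97, against -0.84 and -0.65 in CTL 92 and 93. In CTL 97, the amino acid list was at -0.01 and the cholesterol list at 0.05. The CD8 marker Cd8b1 was at 0.01 in LIP 90, 1.18 in LIP 96 and 0.87 in LIP 97, and at 0.13, 0.36 and -0.49 in CTL 92, 93 and 97. The part of either cell type in the amino acid, synthetase and cholesterol genes was not tested. The summed B cell markers were 20.8 to 57.3 CPM in CTL and 21.7 to 59.3 CPM in LIP on day 2.

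The amino acid response element, written as TGATG, any base, AA, any base and C on either strand, was present upstream of 2 of 17 amino acid genes with a window (11.8%) and of 0 of 13 aminoacyl-tRNA synthetases, against 1.03% of the 27025 genes and 0.545% of the tested genes with a window. The match with the smallest p was that of Slc7a11 (minus strand, chr3:50443614-50443863 of GRCm38.p6), 66 to 57 bases before the start, in capitals.
Slc7a11: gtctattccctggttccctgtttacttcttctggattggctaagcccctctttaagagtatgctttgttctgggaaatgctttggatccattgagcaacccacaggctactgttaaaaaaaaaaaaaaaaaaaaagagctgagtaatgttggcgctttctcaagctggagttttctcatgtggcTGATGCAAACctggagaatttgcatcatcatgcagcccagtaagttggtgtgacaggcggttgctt
As above, the letters were found in the window and no binding was measured.

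Translation initiation and elongation factors had a median interaction of 0.31 over 44 members, with 18 at an unadjusted p under 0.05, all positive (8.65% of all genes), and 1 at an adjusted p under 0.05. Without LIP 90, 13 were positive and 2 negative at an adjusted p under 0.05, against 5.64% and 4.45% of all genes. The gene that passed with all libraries was Eif2s2, the β subunit of eIF2, which brings the initiator tRNA to the ribosome. It was at 94.77, 90.53 and 83.28 CPM (CTL) and 74.27, 81.47 and 68.14 CPM (LIP) on day 0, and at 158.3, 155.4 and 156.1 CPM (CTL) and 247.9, 344.4 and 321.6 CPM (LIP) on day 2. The groups did not overlap on either day. The LIP difference was -0.26 on day 0 (adjusted p = 0.679) and 0.96 on day 2 (adjusted p = 0.00231), with an interaction of 1.22 ± 0.17 (adjusted p = 0.0192).

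Eif1, which selects the start codon, had an interaction of 1.06 ± 0.20, and Eif3c, a core subunit of eIF3, of 1.01 ± 0.20 (adjusted p = 0.0740 for both). Eef1a1, the elongation factor that delivers aminoacyl-tRNA, was at 5993 to 8269 CPM on day 0, at 8394, 9370 and 9280 CPM in CTL and at 9729, 17560 and 14550 CPM in LIP 90, 96 and 97, an interaction of 0.94 ± 0.24 (adjusted p = 0.100). The ribosomal protein gene Rps24 had 0.95 ± 0.18 (adjusted p = 0.0740). Genes of this kind have many processed copies in the genome, and their counts may include reads of these. By contrast, nucleolar genes of ribosome biogenesis had a median of 0.02 over 40 members, with Npm1 at 0.64 ± 0.16 (adjusted p = 0.0983), and -0.27 without LIP 90, where 3 were positive and 7 negative at an adjusted p of 0.05, against 5.64% and 4.45% of all genes.

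The negative side began with Ctsw, cathepsin W, a protease of cytotoxic lymphocytes. It was at 22.6, 18.42 and 31.18 CPM (CTL) and 36.1, 33.77 and 38.35 CPM (LIP) on day 0, and at 13, 20.06 and 21.35 CPM (CTL) and 7.255, 5.056 and 5.96 CPM (LIP) on day 2. LIP was thus above every CTL library before culture and below every CTL library after it, and the interaction was -2.15 ± 0.31 (adjusted p = 0.0230). In bulk RNA, fewer cells of a type and less RNA per cell cannot be told apart. Other cytotoxic genes did not follow Ctsw as a list: the median over 16 members, Ctsw included, was 0.53, with 2 positive and 2 negative at an unadjusted p under 0.05 (against 8.65% and 7.28% of all genes), and it was 0.10 without LIP 96, 0.23 without CTL 93 of day 2 and 0.25 without CTL 94 of day 0. Single members went both ways, with Nkg7 at -1.62 ± 0.50 (adjusted p = 0.137) and Klrk1, the NKG2D receptor, at 1.80 ± 0.49 (adjusted p = 0.11). The summed NK markers were 3.37 to 11.3 CPM (CTL) and 9.51 to 13.4 CPM (LIP) on day 0 and 0.568 to 0.845 CPM (CTL) and 1.16 to 3.09 CPM (LIP) on day 2, and their part in Ctsw was not tested. The CD8 T cell marker Cd8b1 was at 5.179, 6.091 and 3.293 CPM in CTL and at 4.747, 10.95 and 8.81 CPM in LIP 90, 96 and 97 on day 2, with an interaction of 0.72 ± 0.44 (adjusted p = 0.462), and its part in the cytotoxic genes was not tested.

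Zmat3, an RNA-binding protein induced by p53, stood at 48.06, 50.08 and 53.15 CPM (CTL) and 49.47, 57.97 and 55.98 CPM (LIP) on day 0. On day 2 it reached 365.4, 373.2 and 355.3 CPM in CTL but 208.4, 143.5 and 142.8 CPM in LIP 90, 96 and 97. The rise with activation was 2.85 in CTL and 1.60 in LIP, with an interaction of -1.25 ± 0.19 (adjusted p = 0.0273; -1.46 and 7.39e-06 without LIP 90). Among 28 p53 targets, 7 had an unadjusted p under 0.05 on the negative side and 3 on the positive side, against 7.28% and 8.65% of all genes, and the median was -0.32 (-0.31 without Eda2r, which had 0 counts in every library of a group). The list stood at -0.35, -0.61 and -0.60 in LIP 90, 96 and 97 relative to CTL of day 2. Pmaip1, the death-promoting BH3 protein NOXA, had -1.12 ± 0.34 (adjusted p = 0.134; 0.0160 without LIP 90), and Cd80 had -0.93 ± 0.30. On the other side, Plk2, a kinase of the polo family, had 1.21 ± 0.39 (adjusted p = 0.155), with the LIP libraries lower on day 0. Without LIP 90, 10 targets were negative (4.45% of all genes) and 2 positive (5.64%) at an adjusted p of 0.05, with a median of -0.58.

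Zfp512b, a zinc finger protein, crossed over between the days. It was at 48.37, 56.34 and 49.99 CPM (CTL) and 70.96, 68.66 and 73.89 CPM (LIP) on day 0, and at 64.68, 66.04 and 75.86 CPM (CTL) and 50.69, 46.9 and 50.53 CPM (LIP) on day 2. The interaction was -0.94 ± 0.14 (adjusted p = 0.0263). The groups did not overlap on either day, and the gene changed in opposite directions with activation, by 0.42 in CTL and -0.53 in LIP.

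In GRCm39 coordinates of GENCODE M39, the 8 genes lie on 7 chromosomes. The positive ones are Hsp90ab1 at chr17:45878552-45891949, Hspa8 at chr9:40711630-40731039, Parp12 at chr6:39063342-39095573, Eif2s2 at chr2:154713330-154734855 and Gm15459 at chr5:5831615-5833555. The negative ones are Ctsw at chr19:5515071-5518535, Zmat3 at chr3:32388941-32420163 and Zfp512b at chr2:181223895-181234700.

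Of the cholesterol synthesis genes, 24 of 25 were negative, with a median of -0.58 and 12 at an unadjusted p under 0.05 (7.28% of all genes). Their LIP difference was 0.31 on day 0 and -0.44 on day 2 (medians). The division among the LIP libraries was again that of the amino acid genes with the sign turned, at -0.82 and -0.78 in LIP 96 and 97 and 0.09 in LIP 90. Sqle, squalene epoxidase, was at 15.07, 17.7 and 13.81 CPM (CTL) and 25.77, 25.61 and 26.32 CPM (LIP) on day 0, and at 144.8, 164.2 and 161.5 CPM (CTL) and 166.3, 80.61 and 82.4 CPM (LIP) on day 2. Its interaction was -1.25 ± 0.33 (adjusted p = 0.103; -1.68 and 1.18e-05 without LIP 90). Those of Msmo1 and Fdft1, enzymes of the same pathway, were -0.81 and -0.58. Without LIP 90, 18 of 25 were negative at an adjusted p of 0.05 (4.45% of all genes), with a median of -1.04, and in Sqle, Msmo1 and Fdft1 the level of LIP 90 on day 2 was within the range of the CTL libraries or above it.

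For glycolysis genes, LIP 90 was on the other side of CTL. In the fit to all libraries, 1 of 22 had an unadjusted p under 0.05, a negative one (7.28% of all genes), with a median of -0.19, and without LIP 90 there were 11 negative genes at an adjusted p of 0.05 (4.45% of all genes), with a median of -0.71, whereas the median was -0.04 without LIP 96 or without LIP 97. The list was at 0.48 in LIP 90 and at -0.87 and -0.79 in LIP 96 and 97. The markers of B cells and CD8 T cells also divided these libraries, and their part in the glycolysis genes was not tested.

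**Figure D4:**
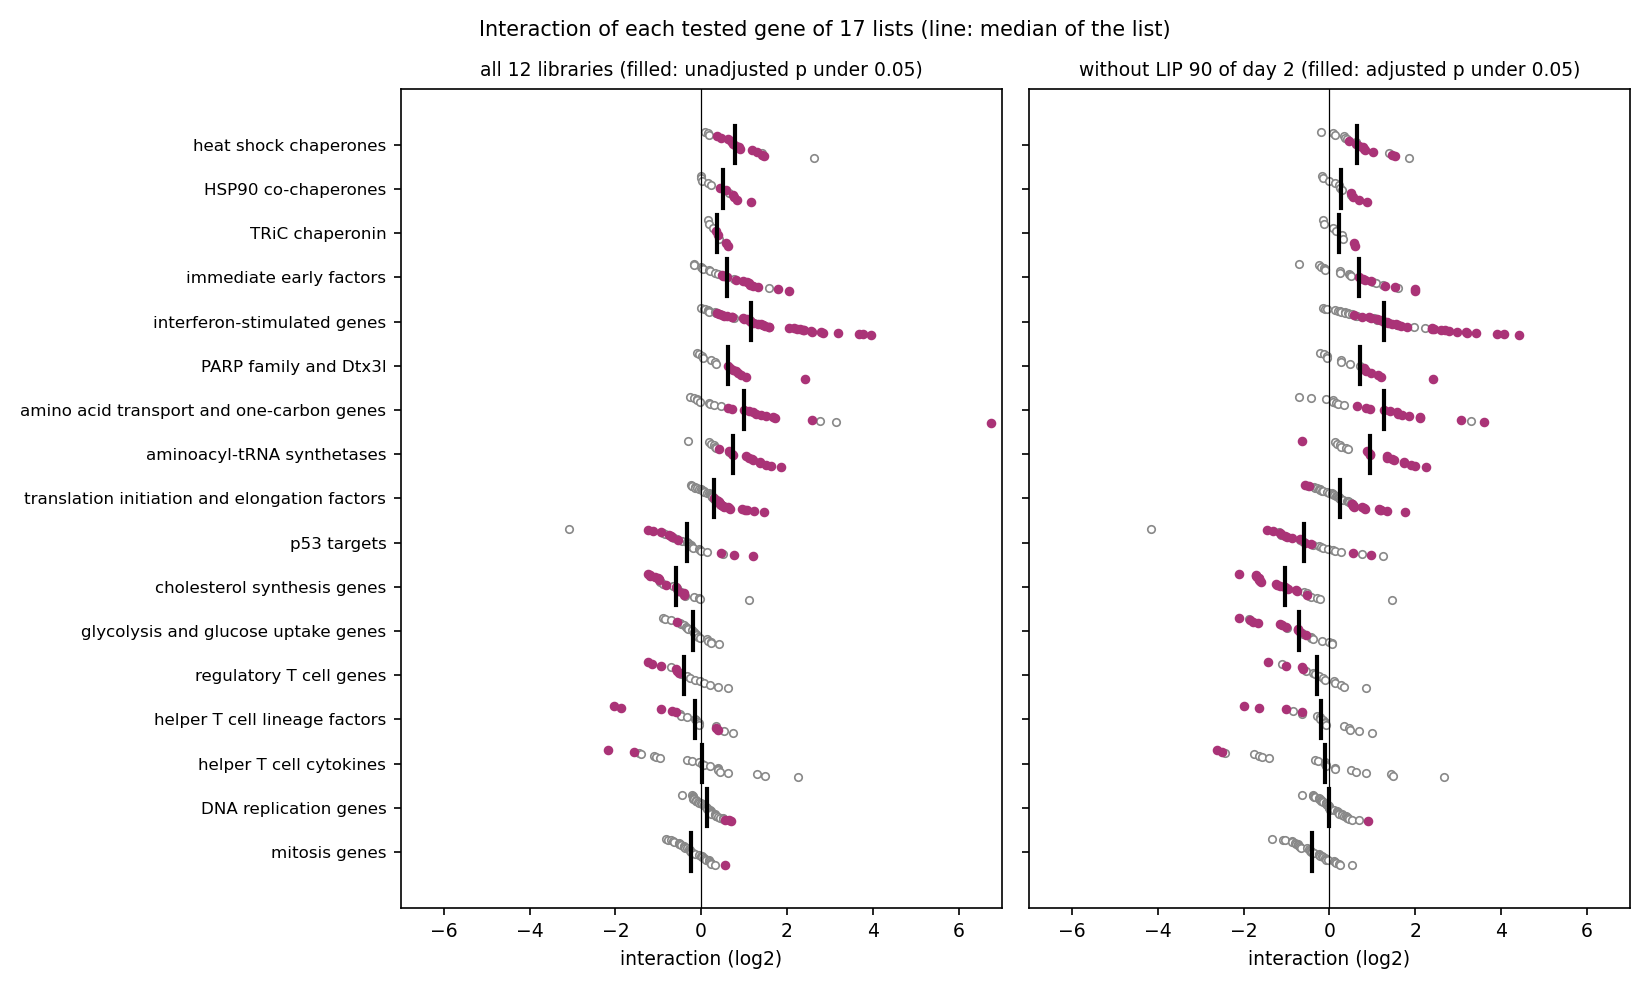
Interaction (log2) of each tested gene of 17 lists, fitted to all 12 libraries on the left (filled points have an unadjusted p under 0.05) and without LIP 90 of day 2 on the right (filled points have an adjusted p under 0.05), with black lines for the list medians. Interferon-stimulated genes have a median of 1.15 and 1.27, and cholesterol synthesis genes of -0.58 and -1.04, and 1 value lies beyond the axis on the right.

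Activation markers had a median of -0.17 over 27 members, with 3 positive and 2 negative at an unadjusted p under 0.05, close to the 8.65% and 7.28% of all genes. Of these, Slc3a2 and Slc7a5 are the amino acid exchanger above, and Cd69, an early membrane protein, was at 387.1, 296.8 and 215.4 CPM (CTL) and 176.1, 151.5 and 152.1 CPM (LIP) on day 0 and overlapped on day 2, with an interaction of 0.88 ± 0.27 (adjusted p = 0.138). Tox, a transcription factor of exhausted T cells, had -0.93 ± 0.29 (adjusted p = 0.140). Naive and quiescence genes had a median of 0.00 over 28 members, with 5 positive and 3 negative, against 8.65% and 7.28% of all genes.

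Within that list the members went in both directions. Tsc22d3, the glucocorticoid-induced leucine zipper, fell with activation from 364.6 to 493.5 CPM on day 0 to 10.04, 8.599 and 9.085 CPM in CTL and to 12.63, 42.5 and 42.37 CPM in LIP 90, 96 and 97, an interaction of 1.94 ± 0.44 (adjusted p = 0.0871; 2.74e-06 without LIP 90). Klf3 and Rbl2, regulators of quiescence, had -0.78 ± 0.18 and -0.68 ± 0.16. Relative to the CTL response, LIP cells thus ended lower in these and higher in Tsc22d3, with adjusted p of 0.0871 or 0.0876 in the fit to all libraries.

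Regulatory T cell genes had a median of -0.40 over 16 members, with 6 at an unadjusted p under 0.05, all negative, against 7.28% of all genes, and a median of -0.29 without LIP 90. Foxp3, the factor that defines these cells, was at 65.54, 59.23 and 47.36 CPM (CTL) and 61.59, 57.97 and 72.82 CPM (LIP) on day 0, and at 35.93, 42.28 and 41.68 CPM (CTL) and 31.79, 27.9 and 29.41 CPM (LIP) on day 2. The groups overlapped before culture, the LIP libraries were all lower than the CTL libraries after it, and the interaction was -0.59 ± 0.19 (adjusted p = 0.153; 0.0499 without LIP 90). Ikzf2, or Helios, had -0.93 ± 0.21 (adjusted p = 0.0871), Nrp1 -1.14 ± 0.36 and Itgae -1.23 ± 0.37. On day 0 the mean level of the list ranged from -0.26 in CTL 89 to 0.24 in CTL 88 and from 0.12 to 0.25 in LIP, and on day 2 from -0.21 in CTL 97 to 0.17 in CTL 92 and from -0.34 to -0.13 in LIP.

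Lineage factors of helper T cells included 5 negative and 2 positive genes at an unadjusted p under 0.05 among 18, against 7.28% and 8.65% of all genes. Ahr, a ligand-activated factor of Th17 and other cells, was at 6.14 to 11.0 CPM in the libraries of day 0. On day 2 it was at 27.9, 28.19 and 33.39 CPM in CTL and at 7.076, 9.737 and 13.47 CPM in LIP. CTL cells raised Ahr by 1.98 and LIP cells by 0.13, an interaction of -1.86 ± 0.35 (adjusted p = 0.0740; 0.00495 without LIP 90). Of 21 cytokine genes, 2 were negative at an unadjusted p under 0.05 and none positive, against 7.28% and 8.65% of all genes: Penk, proenkephalin, had -2.17 ± 0.63, and Csf1, a growth factor for macrophages, had -1.56 ± 0.63 (-2.51 without LIP 90, adjusted p = 0.000341).

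For cell cycle genes, the counts are read against the 8.65% of all genes that were positive at an unadjusted p under 0.05. DNA replication genes had a median of 0.13 over 40 members, with 3 positive at an unadjusted p under 0.05 (Mcm5 0.64, Cdt1 0.69 and Lig1 0.56), and mitosis genes of -0.24 over 34, with 1 positive. The mitosis list varied among CTL libraries of day 0, at -0.80 in CTL 89 and 0.79 in CTL 94. Replication-dependent histones had a median of 0.28 over 37 members, with 3 positive. Without LIP 90 these medians were -0.01, -0.42 and 0.13.

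Of 12 senescence genes, 9 were tested. The list was chosen by the study on mice of this kind, so that its values are not independent evidence. In the fits to all libraries, none had an adjusted p under 0.05 in edgeR or DESeq2, and 1 was positive and 3 negative at an unadjusted p under 0.05 (against 8.65% and 7.28% of all genes), with a median of -1.41. This median equals the value of Il2, whose SE was 1.37, and was -1.35 without Mmp9, which had 0 counts in every library of a group. Without LIP 90 the median was -2.44, and Glb1 passed the threshold. Tnfsf8, which encodes CD153, was at 88.97 to 117.5 CPM on day 0, at 1282, 971.4 and 1161 CPM in CTL and at 1484, 2126 and 1629 CPM in LIP on day 2, with an interaction of 0.45 ± 0.20 (adjusted p = 0.306), and of 0.28 without LIP 96. Pdcd1, which encodes PD-1, had -0.59 ± 0.35 (adjusted p = 0.448) and -0.33 without CTL 89 of day 0, and Glb1, lysosomal β-galactosidase, -0.57 ± 0.16 (adjusted p = 0.117; -0.53 and 0.0495 without LIP 90). Il2 was at 63.94, 68.67 and 55.19 CPM in CTL and at 44.96, 5.898 and 17.23 CPM in LIP 90, 96 and 97 on day 2, with an interaction of -1.41 ± 1.37 (adjusted p = 0.672; -2.44 and 0.0998 without LIP 90, and -0.94 without LIP 96).

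Klrg1, Ccr6 and Cx3cr1 were under 6 CPM in every library, with interactions of -1.96 ± 0.89, -2.25 ± 1.08 and -2.67 ± 1.13 (adjusted p = 0.301, 0.328 and 0.267). Spp1, osteopontin, reached 3.488, 3.225 and 2.271 CPM in CTL and 2.866, 0.187 and 0.518 CPM in LIP on day 2. Mmp9 was at 0 in all LIP libraries of day 2 and in 2 of 3 CTL libraries, and no fold is given. Il6, Il1b and Ifnb1 did not pass the filter on low counts, with at most 17, 4 and 0 counts in a library.

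Among protein-coding genes of at least 10 CPM, those with the smallest p outside the lists were spread over unrelated functions. Pde3b, a phosphodiesterase that degrades cyclic AMP, was at 188.9, 200.3 and 202.9 CPM (CTL) and 118.8, 109.2 and 98.74 CPM (LIP) on day 0 and at 134.2, 129.2 and 130.9 CPM (CTL) and 118.3, 124.6 and 118 CPM (LIP) on day 2, with an interaction of 0.73 ± 0.12 (adjusted p = 0.0713). LIP was below CTL without overlap on both days, by -0.86 on day 0 and -0.13 on day 2 (log2, adjusted p = 0.00128 and 0.431). Pja1, a ubiquitin ligase, had 0.93 ± 0.17, Treml2, a receptor of the TREM family, 1.25 ± 0.23, and Nmi, an interferon-induced partner of STAT proteins, 1.12 ± 0.21 (adjusted p = 0.0740 for each).

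On the negative side, Rgs3, a regulator of G protein signalling, was at 140.6 to 178 CPM on day 0, at 127.2, 143.7 and 130.5 CPM in CTL and at 87.86, 83.79 and 83.05 CPM in LIP on day 2, so that LIP 90 was close to the other two, with an interaction of -0.75 ± 0.14 (adjusted p = 0.0740). Ptprv, a phosphatase-like gene induced by p53 in mice, had -1.39 ± 0.24 (adjusted p = 0.0713). Art2b, an ADP-ribosyltransferase of the T cell surface, had -1.14 ± 0.21, Cdc42bpg, a kinase, -1.40 ± 0.27, Synpo, an actin-associated protein, -1.69 ± 0.32 and Igip -0.89 ± 0.17 (adjusted p = 0.0740 for each).

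Some values moved with 1 library. Dnm3, a dynamin, was at 37.31, 44.55 and 36.91 CPM in CTL and 8.15, 2.341 and 6.348 CPM in LIP on day 2, and had -3.22 ± 0.64 with LIP 90 and -3.65 without it (adjusted p = 0.0764 and 0.00150). Tnfsf4, the gene of OX40 ligand, was at 35.83, 35.47 and 38.27 CPM in CTL and 21.85, 5.243 and 7.385 CPM in LIP on day 2, with -2.80 ± 1.49 and -3.69 (adjusted p = 0.392 and 0.0138). Nrn1, neuritin, was at 23.04, 30.33 and 20.33 CPM in CTL and at 47.2, 2.715 and 9.199 CPM in LIP 90, 96 and 97, and its interaction went from -0.67 ± 1.03 to -2.47 (adjusted p = 0.808 and 0.0188). On the positive side, Chchd10, a mitochondrial protein, and Slc1a4, a neutral amino acid transporter, had 2.89 and 3.49 without LIP 90 (adjusted p = 0.000142 and 0.000175) against 2.43 and 2.96 with it (adjusted p = 0.180 and 0.329). Of the 1588 genes that were tested in both fits and passed without LIP 90, LIP 90 lay within the range of the CTL libraries of day 2 in 475 (29.9%), beyond it on the side of LIP 96 and 97 in 822 (51.8%) and beyond it on the other side in 291 (18.3%), against 40.9%, 37.2% and 21.9% of all genes tested. Since the genes were chosen without LIP 90 for differing in LIP 96 and 97, these shares are a description.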

How the data were processed

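RNA of splenic CD4+ T cells was sequenced in 12 libraries, prepared after rRNA depletion with a directional kit. The submitters' processing notes name FastQC 0.11.9, Trimmomatic 0.38, Bowtie2, RSEM 1.3.0 and edgeR, and the study's methods give another Trimmomatic version and also name HISAT2. The strand setting of the counting is not given in the sources used here. The deposited values were expected counts per gene, estimated by the authors with RSEM, of which 73267 were not whole. They were rounded to whole numbers. The authors' columns of fold changes and p-values between groups were not used, nor were 2 columns of samples without labels.

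Genes were filtered with filterByExpr over the 4 groups, scaled by TMM and tested with the quasi-likelihood test of edgeR 4.0.16 (limma 3.58.1, R 4.3.3) over all 12 libraries, and p-values were adjusted after Benjamini and Hochberg over all 15475 genes with a threshold of 0.05. Values in CPM were computed from the deposited counts with TMM library sizes, and log2 CPM of lists with a prior count of 2. The SE was the log2 value divided by the square root of F. The scripts were tested on data simulated with the levels and dispersions of these libraries. At an adjusted p under 0.05, the test recovered 36.5% of genes given a log2 interaction of 1 and 79.9% of those given 2. Many differences of this size would thus be missed. Names, types and positions came from GENCODE M39 (GRCm39), which held 54749 of 55414 records, and copies were aligned with BLAST+ 2.17.0. DESeq2 1.42.0 was used as an alternative, and figures were drawn with matplotlib 3.10.9 in Python 3.11.15.

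The genes named were those with an adjusted p under 0.05, the 10 positive and 10 negative protein-coding genes of at least 10 CPM with the smallest p, the 10 highest and 10 lowest of such genes past the threshold when LIP 90 was left out, up to 4 members of each list with the smallest p, and every senescence gene. Hsph1 and Hsp90aa1 were chosen after their values were seen, and Isg15 and Gbp2 by the smallest p among members with a motif match. The members and lists were chosen with earlier results of these data known. Depth limited low genes, since a count of 3 was 0.269 to 0.452 CPM, and this covers counting error only. Some members that the rule picked are not reported here.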

Additional observations from a re-analysis of the deposited data

Results flagged for a closer look

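In 8 genes the response to activation differed between the LIP and CTL groups by the test of the difference itself, in edgeR's quasi-likelihood test over all 12 libraries. The log2 interactions of the positive genes were 1.46 for Hsp90ab1, 1.42 for Hspa8, 1.3 for its near-identical copy Gm15459, 1.22 for Eif2s2 and 2.42 for Parp12. Those of the negative genes were -2.15 for Ctsw, -1.25 for Zmat3 and -0.94 for Zfp512b. With 1 library left out at a time, the highest adjusted p was 0.00859 for Hsp90ab1, 0.102 for Hspa8, 0.144 for Gm15459, 0.120 for Eif2s2, 0.0846 for Parp12, 0.120 for Ctsw, 0.152 for Zmat3 and 0.152 for Zfp512b.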

How the results depend on the processing

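All 8 genes kept their sign under every alternative in which they were tested. The number of genes with an adjusted p under 0.05 (8, of which 5 positive and 3 negative) was 531 with DESeq2 (379 positive, 152 negative), 527 with edgeR's likelihood ratio test (314 and 213), 815 without a filter on low counts (514 and 301), 1568 with limma voom and sample quality weights (912 and 656) and 1682 without LIP 90 of day 2 and CTL 94 of day 0 together (913 and 769). With 1 library left out, it ranged from 1 to 1596, from 1 to 892 for positive and from 0 to 704 for negative genes, and the highest values were those without LIP 90. The number at an unadjusted p under 0.05 (2464) ranged from 1925 to 3830 with 1 library left out, and was 3983 with quality weights and 4026 without LIP 90 and CTL 94. The cause was not tested, other than that the last fits hold fewer libraries. Under other normalizations, voom without weights and the robust fit, the counts stayed at 8, 5 and 3. List medians that changed sign among the alternatives were those of mitosis genes (-1.12 to 0.12), histones (-0.34 to 0.62), nucleolar genes (-0.28 to 0.12), activation markers (-0.23 to 0.04), naive genes (-0.05 to 0.05), cytokines (-0.14 to 0.05), DNA replication genes (-0.01 to 0.25), antioxidant genes (-0.09 to 0.22), cold-inducible genes (-0.09 to 0.31) and the markers of CD4 T (-0.16 to 0.03), NK (-0.41 to 1.38), myeloid (-0.05 to 1.12) and erythroid cells (-0.69 to 0.02). The numbers 92, 93, 94 and 97 occur in libraries of different groups. Deviations from the group means correlated at -0.055 to 0.104 in these 4 pairs, and at -0.138 to 0.108 in the 50 pairs of unlike number. The labels do not say what a shared number means, and 4 pairs cannot decide whether such libraries share a mouse or a batch. With the number as a replicate block, an alternative chosen after seeing the data, 550 genes passed (370 positive, 180 negative) as a fixed term, which leaves 1 residual degree of freedom and draws nothing from CTL 88, CTL 89, LIP 90 and LIP 96, whose numbers occur once, so that LIP of day 2 rests on LIP 97, and 8 (5 and 3) as a random block in limma voom. All 8 genes were called in both, and Spp1 reversed to 2.12 with the fixed term (adjusted p = 0.815).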

Other observations

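Respiratory chain genes had a median interaction of 0.19 over 40 members (0.11 without LIP 90), with 6 positive at an unadjusted p under 0.05, and proteasome subunits of 0.18 over 31 members (0.08 without LIP 90), also with 6 positive, against 8.65% of all genes. Apoptosis genes had 3 positive and 4 negative among 33, against 8.65% and 7.28% of all genes, with a median of 0.14 (0.18 without LIP 90). Metallothionein and antioxidant genes had 2 positive and 1 negative among 14, against the same shares, with a median of 0.12 that turned to -0.07 without LIP 90. The cold-inducible RNA-binding proteins Cirbp and Rbm3 had a median LIP difference of 0.51 on day 0 and 0.57 on day 2, and a median interaction of 0.06 (0.11 without LIP 90), which was negative under some alternatives.

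The summed markers of pancreatic acinar cells were 0.12 to 0.395 CPM in CTL and 0.689 to 10.3 CPM in LIP on day 0, and 5.11 to 10.3 CPM in CTL and 3.31 to 6.27 CPM in LIP on day 2. These sums rest on different members. Prss2, the 1 marker tested, was at 0 in CTL and 0.138 to 0.985 CPM in LIP on day 0. On day 2 it was at 5.11 to 10.03 CPM in CTL, most of the sum, and at 2.98 to 5.056 CPM in LIP.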
